A study of Mus musculus with 6 samples.

Results

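The genes described here are the 10 named components of major histocompatibility complex (MHC) class I antigen presentation in mouse hepatocytes, listed by name as parts of the pathway. They are the heavy chains H2-K1 and H2-D1, the light chain B2m, the peptide transporter subunits Tap1 and Tap2, the loading factor Tapbp, the immunoproteasome subunits Psmb8, Psmb9 and Psmb10, and the transcriptional regulator Nlrc5. All 10 were among the 53599 gene symbols of the count table and all 10 had enough reads to be among the 12691 genes tested.

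RNA was sequenced from hepatocytes taken 4 days after an adeno-associated virus (AAV8) had been injected. In the Sox4 group the virus delivered mouse Sox4 with an HA tag, followed by a P2A peptide and Cre recombinase. The control virus delivered Cre and no Sox4, and is named EV, for empty vector. Both vectors used TBG, a promoter active in hepatocytes. The paper describes its empty vector with a U6 guide RNA backbone, and the Sox4 vector was built on another TBG plasmid. The vectors thus differed in more than Sox4. The mice were males of 4 to 8 weeks on a C57BL/6J background that were homozygous for a Cre-dependent Cas9-EGFP allele, so Cre could switch on Cas9 and EGFP in both groups. There were 3 libraries per group, each from a separate mouse. As a model this is short, vector-driven expression of Sox4 and of no other transcription factor. The cells were enriched by Percoll density rather than sorted on a marker.

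Class I molecules display short peptides from a cell's own proteins to CD8 T cells. Peptides are cut by the proteasome, pumped into the endoplasmic reticulum by the TAP transporter and loaded onto a heavy chain paired with B2m, with tapasin (Tapbp) bridging TAP and the empty heavy chain. Interferon-gamma raises most of these genes, in part through IRF1, and replaces the catalytic subunits of the standard proteasome with those of the immunoproteasome. Resting hepatocytes are known for low class I expression for a nucleated cell, and for high expression of the secreted class I-like protein H2-Q10.

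Sox4 itself had 2, 0 and 3 counts in the EV libraries and 21697, 15097 and 11816 in the Sox4 libraries, so the labels held in all 6. Total counts were 15090629 to 16964860 per library. Of the 12691 genes tested by edgeR's quasi-likelihood test, 55.1% passed an adjusted p of 0.05, with 29.0% higher and 26.0% lower in Sox4. The libraries were scaled by TMM, a method that takes most genes as unchanged. It set the Sox4 libraries 1.486 times deeper than EV in effective size, against 1.072 times in total counts, and put the median change of the 12691 genes at 0.04 (log2, Sox4 minus EV). Scaling by library size alone moved that median to 0.51 and the share of higher genes among those called from 52.7% to 79.9%, so members with small changes depended on the scaling and are described with both. Hepatocyte markers were abundant in every library. Summed, they had 100985 to 125630 CPM (counts relative to the TMM-scaled library size) in EV and 72225 to 81874 CPM in Sox4. Of the 5 tested, 4 were lower in Sox4, and the median log2 fold change of the 5 was -1.08.

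Of the 10 class I genes, 7 were lower in the Sox4 libraries, none was higher, and H2-D1, B2m and Nlrc5 did not pass the test. At an unadjusted p under 0.05, 0 were higher in edgeR, and DESeq2 and limma also called 0 higher. The share of all tested genes called lower was 26.0%, and the share called higher was 29.0%. The median log2 fold change (Sox4 minus EV) over the 10 genes was -0.96, with a range from -1.78 for Psmb9 to 0.34 for Nlrc5. The changes were unequal along the pathway: H2-K1, Tap2, Tapbp and the 3 immunoproteasome subunits ran between 1.86-fold and 3.44-fold lower, Tap1 was 1.58-fold lower, and B2m, the most abundant member, was 1.17-fold lower with overlapping groups. In the same 7 genes, every Sox4 library lay below every EV library. Groups did not overlap for 63.0% of all tested genes either, so separation of the libraries by itself was common in this comparison.

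**Figure D1:**
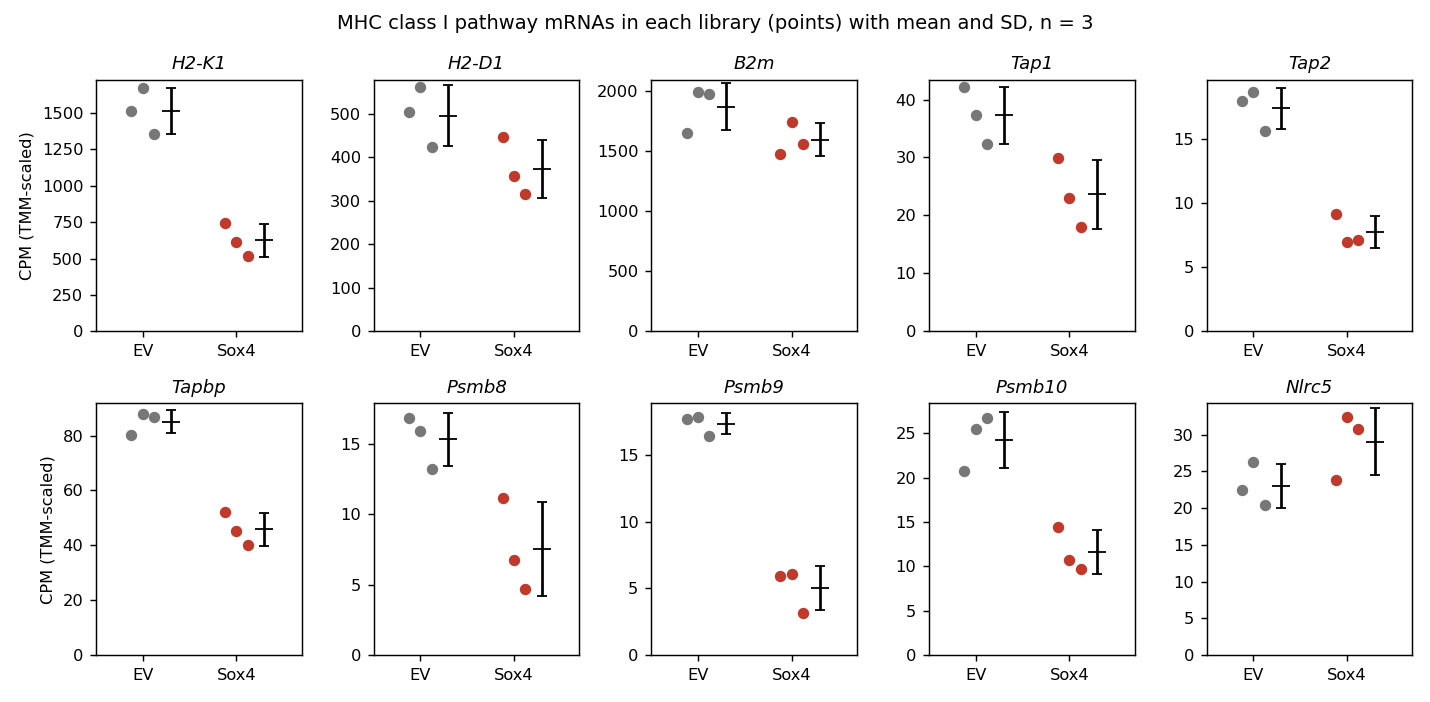
CPM on TMM-scaled library sizes (y axis, starting at 0 in each panel) in the 3 EV and 3 Sox4 libraries for each class I gene, with each point a library and bars the mean and SD (n = 3). The Sox4 points lie below all EV points for H2-K1, Tap1, Tap2, Tapbp, Psmb8, Psmb9 and Psmb10, and the groups overlap for H2-D1, B2m and Nlrc5.

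The pathway's genes lie in a few places in the genome. In the GENCODE M21 annotation of GRCm38, H2-K1, H2-D1, Tap1, Tap2, Tapbp, Psmb8 and Psmb9 are on chromosome 17, B2m is on chromosome 2, and Psmb10 and Nlrc5 are on chromosome 8. The deposited counts were made on GRCm39, so no gene coordinates are given for them. RefSeq promoter windows of GRCm38.p6, from 250 bases before to 50 bases after a start site, were found for 8 of the 10 genes. The 3 proximal promoters of the class I molecule itself are shown because H2-K1 fell in Sox4 while H2-D1 and B2m did not pass the test. They are read 5′ to 3′ from 250 bases before the RefSeq start site to the end of the last match before that site. H2-K1 has another RefSeq start site nearby, not used for the stretch shown. Counted from it, the last CCAAT begins at base 9 after the start. Capitals mark an NF-kB site (GGGNNTTCCC), an interferon-stimulated response element (GAAANNGAAA), a CCAAT box (CCAAT, or ATTGG on the other strand) and a cyclic AMP response core (TGACG). The stretches lie on the minus strand at chr17:34000335-34000583 for H2-K1, on the plus strand at chr17:35262844-35263045 for H2-D1 and on the plus strand at chr2:122147437-122147638 for B2m.
H2-K1: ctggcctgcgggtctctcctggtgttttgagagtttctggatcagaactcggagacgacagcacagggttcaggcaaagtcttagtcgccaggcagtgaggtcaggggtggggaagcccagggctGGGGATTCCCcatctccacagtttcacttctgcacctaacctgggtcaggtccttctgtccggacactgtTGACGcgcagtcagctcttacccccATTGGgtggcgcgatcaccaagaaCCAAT
H2-D1: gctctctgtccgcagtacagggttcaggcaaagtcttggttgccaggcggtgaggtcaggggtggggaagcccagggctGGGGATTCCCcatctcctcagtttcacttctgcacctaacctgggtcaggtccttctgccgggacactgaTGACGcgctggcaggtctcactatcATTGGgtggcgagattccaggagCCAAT
B2m: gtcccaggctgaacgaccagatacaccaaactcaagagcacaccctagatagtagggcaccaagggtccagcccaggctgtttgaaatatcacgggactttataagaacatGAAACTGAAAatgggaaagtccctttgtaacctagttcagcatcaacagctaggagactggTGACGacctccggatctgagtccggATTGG

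The H2-K1 and H2-D1 stretches shown held the same capitalised elements in the same order. From the first base of the NF-kB site to the last base of ATTGG, both stretches had 100 bases, and 89 were identical. The searches covered both strands of the whole windows, and the motifs searched did not overlap in these 3 stretches. GGGNNTTCCC was found in H2-K1 and H2-D1 only among the 8 genes, against 1.75% of 32851 RefSeq windows of the same length. GAAANNGAAA was found in B2m only, against 3.44% of windows. Only exact letters were searched, so response elements that differ from them would not be marked. H2-K1 and H2-D1 therefore cannot be said to lack such an element. TGACG was found in 5 of the 8 genes (H2-K1, H2-D1, B2m, Tap1 and Psmb9), against 20.8% of windows, and CCAAT in 6 (those 5 and Tapbp), against 37.4%. The gamma-activated site TTCNNNGAA was found in Psmb8, against 8.30% of windows. Of the letters ACAAAG and ACAATG, cores bound by SOX factors, ACAAAG was found in the B2m window and ACAATG in none, against 18.7% and 12.6% of windows. The Tap1 and Psmb9 windows face away from each other and share 275 bases, so matches in them are largely the same bases. These matches are descriptions of letters, and binding was not measured in the data used here.

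The heavy chains carry the peptide groove that a T cell reads, and C57BL/6 mice have only H2-K1 and H2-D1 as classical class I heavy chains. H2-K1 had 19657, 22037 and 18722 counts in EV and 14843, 11993 and 10259 in Sox4. The level was 1514 ± 157 CPM in EV against 624 ± 113 CPM in Sox4 (SD, n = 3), and the lowest EV library lay well above the highest Sox4 library. The log2 fold change was -1.28 (SE 0.17), or 2.42-fold lower, with an edgeR adjusted p of 0.000185. It stayed past the threshold and lower in every alternative fit, between -1.42 and -0.81.

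H2-D1 had 6555, 7403 and 5837 counts in EV and 8947, 7008 and 6237 in Sox4, so that its raw counts did not fall. On the TMM scale the level was 497 ± 69.4 CPM in EV against 374 ± 67.6 CPM in Sox4, with the highest Sox4 library above the lowest EV library. Its log2 fold change of -0.41 (SE 0.19) missed the threshold, with an edgeR adjusted p of 0.0631. Its call depended on the settings: it was 0.06 with library size alone, and it passed as lower without a filter on low counts (-0.37, adjusted p = 0.0491), with DESeq2's Wald test, with a replicate block, without EV replicate 3 (-0.53, adjusted p = 0.0359 by edgeR) or without Sox4 replicate 1 (-0.56, adjusted p = 0.0101).

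B2m, the invariant light chain shared by classical and most nonclassical class I molecules, had 21396, 26219 and 27180 counts in EV and 29511, 34188 and 30769 in Sox4. On the TMM scale it had 1647, 1989 and 1972 CPM in EV and 1477, 1743 and 1556 CPM in Sox4. The groups overlapped, since the Sox4 library with 1743 CPM exceeded the lowest EV library. The log2 fold change was -0.23 (SE 0.11, adjusted p = 0.218 by edgeR), and it was 0.24 with library size alone, which also missed the threshold.

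Ratios between mRNAs of the same library do not depend on how libraries are scaled. The log2 ratio of heavy chain counts (H2-K1 plus H2-D1) to B2m counts was 0.29, 0.17 and -0.15 in EV and -0.31, -0.85 and -0.90 in Sox4. The groups did not overlap, and the mean ratio was 0.79 lower in Sox4 on the log2 scale (exact two-sided permutation test, p = 0.1, the smallest that 3 against 3 libraries allow). For H2-K1 alone the log2 ratio to B2m was -0.12, -0.25 and -0.54 in EV and -0.99, -1.51 and -1.58 in Sox4, again with no overlap (difference -1.06, exact p = 0.1). For H2-D1 to B2m the values overlapped, from -2.22 to -1.71 in EV and from -2.303 to -1.72 in Sox4 (difference -0.19, p = 0.5 in the exact test).

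The ratio of H2-K1 to H2-D1, a comparison chosen after their values had been seen, had little spread within a group. On the log2 scale it was 1.58, 1.57 and 1.68 in EV and 0.73, 0.78 and 0.72 in Sox4. The mean fell by 0.87, against SDs of 0.06 and 0.03 (exact two-sided permutation test, p = 0.1, the smallest possible). The transcripts of H2-K1 and H2-D1 share no run of 100 bases in GENCODE M21, and 4.08% of the 50-base runs of H2-K1 occur in H2-D1. With all other genes, 0.957% of the 100-base runs of H2-K1 and 3.59% of those of H2-D1 were shared, with H2-Q10 for H2-K1 and with genes such as H2-Q1 and H2-T23 for H2-D1. How reads matching several genes were counted is not given in the sources used here, so reads from such stretches are uncertain.

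**Figure D2:**
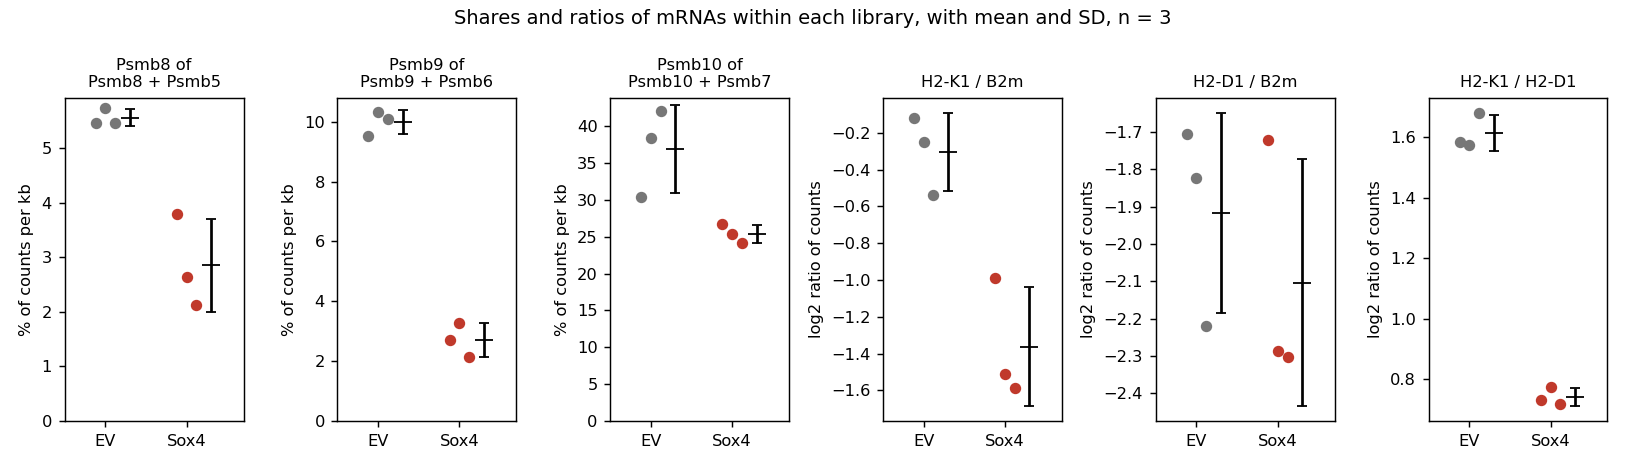
Shares (left 3 panels, percent of counts per kb, axis from 0) and log2 count ratios (right 3 panels, axes not starting at 0) within each library, with points for libraries and bars for mean and SD (n = 3). EV and Sox4 are separate for every immunoproteasome share, H2-K1 to B2m and H2-K1 to H2-D1, and overlap for H2-D1 to B2m.

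Tap1 and Tap2 form the heterodimer that moves peptides from the cytosol into the endoplasmic reticulum. Tap1 had 42.2, 37.3 and 32.4 CPM in EV and 29.9, 23.05 and 18.0 CPM in Sox4. All Sox4 libraries were lower than all EV libraries, by a narrow margin for the nearest pair. The log2 fold change was -0.66 (SE 0.24, adjusted p = 0.0135 by edgeR), but with library size alone it was -0.19 and did not pass. Its partner Tap2 had 17.9, 18.7 and 15.6 CPM in EV and 9.16, 6.99 and 7.08 CPM in Sox4. Tap2 changed more evenly across libraries, with a log2 fold change of -1.17 (SE 0.15), 2.24-fold lower (adjusted p = 0.000274), and passed in every alternative fit.

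Tapbp encodes tapasin, which holds the empty heavy chain beside TAP until a stable peptide is bound. It had 80.3, 88.0 and 86.9 CPM in EV and 52.2, 45.0 and 40.2 CPM in Sox4. The spread within each group was small beside the gap between them. The log2 fold change was -0.89 (SE 0.12), or 1.86-fold lower, with an edgeR adjusted p of 0.000204, and it passed in every alternative fit.

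The immunoproteasome subunits replace Psmb5, Psmb6 and Psmb7, the catalytic subunits of the standard proteasome, and shift cleavage toward peptides that fit class I grooves. Psmb9, which takes the place of Psmb6, had 230, 236 and 227 counts in EV and 118, 119 and 62 in Sox4, the largest decrease among the 10 genes. Its level was 17.4 ± 0.78 CPM in EV against 5.04 ± 1.65 CPM in Sox4, and the log2 fold change was -1.78 (SE 0.30, adjusted p = 0.000175 by edgeR). Psmb10, which replaces Psmb7, had 20.7, 25.5 and 26.7 CPM in EV and 14.4, 10.7 and 9.66 CPM in Sox4. It was 2.09-fold lower (log2 fold change -1.07, SE 0.20, adjusted p = 0.000794).

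Psmb8, which replaces Psmb5, was the least certain of the trio. It had 16.9, 15.9 and 13.2 CPM in EV and 11.2, 6.78 and 4.65 CPM in Sox4, so the Sox4 libraries differed among themselves by more than the distance from the nearest EV library. Its log2 fold change was -1.02 (SE 0.37, adjusted p = 0.0133 by edgeR). The call was lost without Sox4 replicate 2 (-0.95, adjusted p = 0.0520) and with library size alone (-0.55).

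Under TMM scaling, none of the subunits that these replace passed the test. Psmb5 was at 69.2 CPM in EV and 66.2 CPM in Sox4, Psmb6 at 80.2 and 91.6 CPM, and Psmb7 at 83.8 and 67.9 CPM. With library size alone Psmb5 (0.41) and Psmb6 (0.66) passed as higher and Psmb7 was 0.17. Psmb7, at -0.30 under TMM, passed as lower with the replicate number as a block (adjusted p = 0.0221 by edgeR) and without Sox4 replicate 1 (-0.43, adjusted p = 0.0144). Counts per kb of exon sequence were used to compare subunits with each other. The length was that of all annotated exons of a gene together, so absolute shares depend on the annotation. It was 3.381 kb for Psmb8, 3.66 for Psmb9 and 1.705 for Psmb10. For Psmb5, Psmb6 and Psmb7 it was 0.899, 1.872 and 3.421 kb. Psmb8, Psmb9 and Psmb10 made up 12.1%, 14.6% and 15.7% of the 6 catalytic subunits' counts per kb in EV and 7.49%, 6.56% and 6.15% in Sox4. The share was 14.1% ± 1.86 in EV and 6.73% ± 0.69 in Sox4, with no overlap (exact two-sided permutation test, p = 0.1, the smallest possible). From counts not divided by length it was 19.7% in EV and 9.54% in Sox4.

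Each exchange pair went the same way. Psmb9 was 9.98% of Psmb9 plus Psmb6 in EV and 2.70% in Sox4, Psmb8 was 5.56% and 2.86% of its pair with Psmb5, and Psmb10 was 36.9% and 25.4% of its pair with Psmb7. In all 3 pairs the highest Sox4 library lay below the lowest EV library. Shares of mRNA say nothing of how many assembled proteasomes held each subunit, which was not measured.

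Nlrc5, the transactivator that drives class I genes through the conserved promoter module of the heavy chains and B2m, was the only member above zero. It had 291, 346 and 281 counts in EV and 477, 636 and 609 in Sox4. On the TMM scale these were 22.4, 26.2 and 20.4 CPM in EV against 23.9, 32.4 and 30.8 CPM in Sox4, and the groups overlapped at the lowest Sox4 library. The log2 fold change of 0.34 (SE 0.17) missed the threshold (adjusted p = 0.0916 by edgeR). It passed as higher with library size alone (0.81, adjusted p = 0.00130), without a filter on low counts (0.38, adjusted p = 0.0446) and without Sox4 replicate 1 (0.46, adjusted p = 0.0176). Across the alternative fits the log2 fold change of Nlrc5 ran from 0.24 to 0.81. The part of Nlrc5 in the changes of the other members was not tested.

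**Figure D3:**
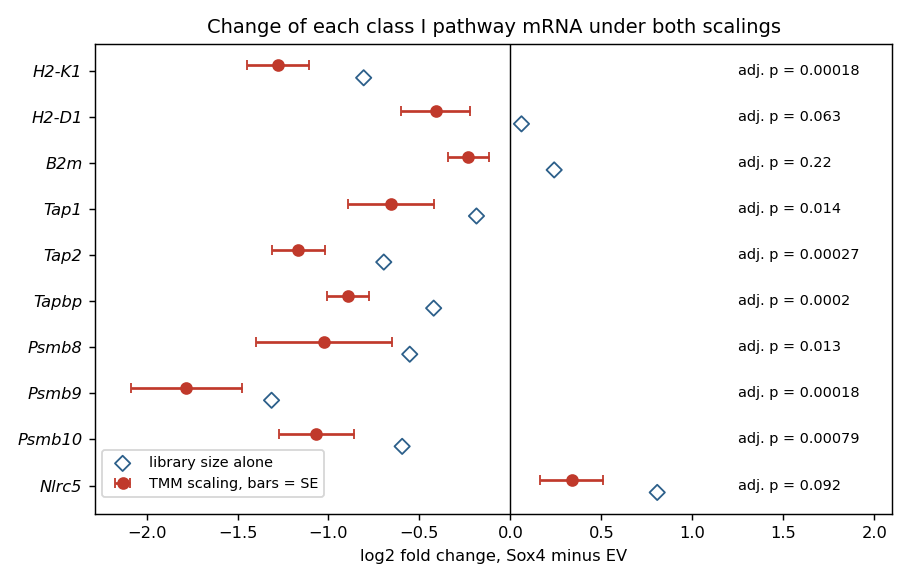
Log2 fold change (x axis, Sox4 minus EV) of each class I gene, with filled points and SE bars for TMM scaling, open diamonds for library size alone and the edgeR adjusted p at the right for TMM. Library size alone moved every gene to the right, and H2-D1 and B2m crossed zero.

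The order of the members by level was compared per kb of exon sequence. The length counted all annotated exons of a gene, so the order depends on the annotation. In EV it ran from B2m (2174 ± 224 CPM per kb) and H2-K1 (515 ± 53.4) through H2-D1 (193 ± 26.9), Tapbp (23.4 ± 1.15), Psmb10 (14.3 ± 1.86) and Tap1 (6.81 ± 0.90) to Nlrc5 (2.71 ± 0.35). Psmb9, Tap2 and Psmb8 had 4.74, 4.602 and 4.53 CPM per kb, between Tap1 and Nlrc5, and their libraries overlapped. In Sox4 the upper end kept its order, but H2-K1 (213 ± 38.3) came close to H2-D1 (145 ± 26.2), with the lowest H2-K1 library at 177 and the highest H2-D1 library at 174 CPM per kb. Psmb9 moved to the bottom, at 1.38 ± 0.45 CPM per kb, and Nlrc5, at 3.42 ± 0.54, lay above Psmb8, Tap2 and Psmb9 on average.

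The Sox4 libraries were not alike in the size of the shift. The median over the 10 genes of log2 CPM minus the EV mean was -0.57 in Sox4 replicate 1, -1.03 in replicate 2 and -1.18 in replicate 3, against 0.02, 0.09 and -0.15 in the EV libraries. Sox4 replicate 1 had the highest Sox4 count and the smallest shift, and 3 libraries are too few for a correlation. With single libraries left out, the 10 genes had a median change of -1.13 (without Sox4 replicate 1) to -0.79 (without Sox4 replicate 3) on the log2 scale.

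Several members overlap a neighbour, and whether reads were counted by strand is not given in the sources used here. Tap1 and Psmb9 lie head to head and share 212 exonic bases on opposite strands, of 5476 and 3660 bases in all. Tapbp shares 904 bases with the antisense gene Gm19412 and 149 with Zbtb22 on its own strand, Psmb8 shares 498 bases with Gm20496, and Tap2 shares 533 bases with Gm15821. Gm19412 and Gm20496 had 0 counts in every library and Gm15821 had 1 to 6, so few reads were assigned to these antisense genes. Zbtb22 had 232 to 314 counts per library.

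Partners of the pathway in peptide assembly and trimming were mostly lower. Under TMM scaling, 6 of 8 such genes were lower in Sox4, against 26.0% of all tested genes. On that scale all 8 were below zero, and the median log2 fold change was -0.97. Erap1, the endoplasmic reticulum aminopeptidase that trims peptides to class I length, was 132 CPM in EV and 54.6 CPM in Sox4 (-1.28, adjusted p = 9.34e-05 by edgeR). Calreticulin (Calr), a chaperone of the loading complex, was 1086 and 467 CPM (-1.22), and the tapasin homologue Tapbpl, a peptide editor, was 29.0 and 12.9 CPM (-1.17). Psme1, a subunit of the PA28 proteasome activator, was lower by 1.09 on the log2 scale and Pomp, the proteasome maturation factor, by 0.86. The lectin chaperone Canx was lower by 0.54, while Psme2 (-0.25) and Pdia3 (-0.11) did not pass. Library size alone moved the median of all tested genes from 0.04 to 0.51. That shift was larger than the changes of Psme2 and Pdia3 and close to that of Canx, whose call may depend on the scaling. Calr and Canx also serve glycoproteins in general, and Pomp serves standard proteasomes too.

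The standard 20S proteasome served as the comparison for the immunoproteasome. Of its 14 subunits, 4 were lower and Psma2 was higher, with a median log2 fold change of -0.27 and a range of -0.52 to 0.29. Psma4 (-0.52), Psmb4 (-0.39), Psmb2 (-0.39) and Psma7 (-0.30) made up the lower calls. The share of all tested genes called lower, 26.0%, is close to 4 of 14. With library size alone 5 of the 14 were higher and none was lower, Psma4 was at -0.05, and Psmb2, Psmb4 and Psma7 turned positive. Leaving out single libraries removed the calls of Psma2 (any library), Psma7 (any EV library, Sox4 replicates 2 or 3), Psmb2 (Sox4 replicate 3) and Psmb4 (EV replicate 2). All 3 immunoproteasome subunits lay below the lowest value of the 14.

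The class Ib and class I-like genes, which present special ligands or serve other functions, were called in both directions. Of 15 tested, 5 were higher and 3 lower, with a median of 0.11, which is near the 29.0% and 26.0% of all tested genes. With library size alone, 8 were higher and 2 lower. H2-Q10, the secreted class I-like protein made in large amounts by liver, was 2631 ± 316 CPM in EV and 805 ± 214 CPM in Sox4 (-1.71, SE 0.25, adjusted p = 0.000114 by edgeR). It was above H2-K1 per kb in EV, at 605 against 515 CPM per kb. Fcgrt, the neonatal Fc receptor that recycles IgG and albumin and pairs with B2m, was 133 and 56.3 CPM (-1.23, adjusted p = 4.15e-05), and H2-T22 was 111 and 60.8 CPM (-0.87).

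Most of the 5 that were higher were of low abundance. Cd1d2, a lipid-presenting molecule, was 0.63 CPM in EV and 2.76 CPM in Sox4 (2.13, adjusted p = 0.00168 by edgeR), H2-Q1 was 1.69 and 7.06 CPM (2.06), and Mr1, which presents vitamin B metabolites to MAIT cells, was 5.58 and 10.3 CPM (0.89). H2-T23, which encodes Qa-1, the ligand of the NKG2A inhibitory receptor, was 231 and 314 CPM (0.44, adjusted p = 0.0351). The call of H2-T23 was lost when any single EV library, or Sox4 replicate 1 or 2, was left out. H2-T10 (1.004, adjusted p = 0.0496) had overlapping groups and lost its call under limma and when any single library other than Sox4 replicate 3 was left out. Of the 100-base runs of H2-T10 and H2-T22, 28.1% and 31.5% occur in other genes, so their split is uncertain, as is that of Cd1d2 (16.6%).

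**Figure D4:**
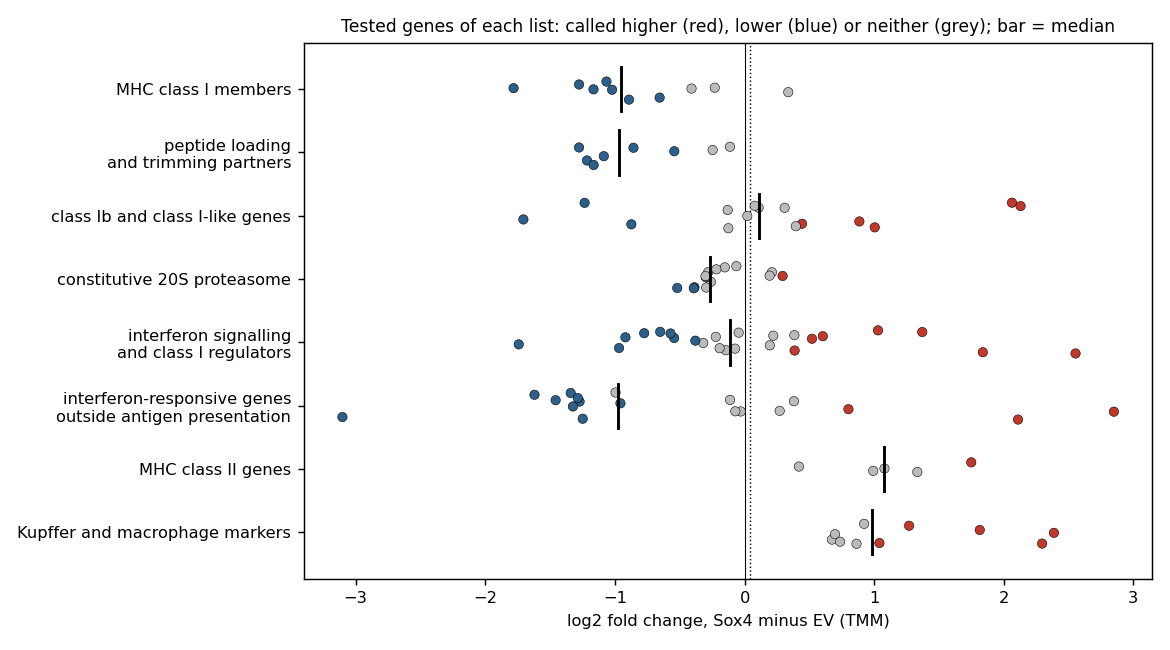
Log2 fold change (x axis, Sox4 minus EV, TMM) of each tested gene in 8 lists, coloured by the edgeR call, with a bar at the list median and a dotted line at the median of all tested genes (0.04). The class I genes and their loading partners sit mostly left of zero, with medians of -0.96 and -0.97, and class Ib genes lie on both sides.

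Among the regulators upstream of class I, calls went both ways, with 7 of 24 tested higher and 8 lower (median -0.11), near the 29.0% and 26.0% of all tested genes. With library size alone, 10 were higher and 2 lower. Irf1, a direct activator of class I and immunoproteasome genes, was 17.7 CPM in EV and 9.37 CPM in Sox4 (-0.92, adjusted p = 0.00434 by edgeR). Irf7, a driver of type I interferon responses, was 31.5 and 9.40 CPM (-1.74), the receptor subunit Ifnar2 was 41.7 and 21.3 CPM (-0.97), and Irf9, a DNA-binding factor of the type I interferon response, was lower by 0.65 on the log2 scale. Irf1 and Irf9 were still below zero but no longer past the threshold with library size alone.

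Other genes of the same list were higher. Socs3, a feedback inhibitor of JAK signalling, was 5.42 CPM in EV and 31.8 CPM in Sox4 (2.55, adjusted p = 0.000194 by edgeR). The interferon-gamma receptor chain Ifngr1 was 11.7 and 23.95 CPM (1.03, adjusted p = 0.000531), the receptor subunits Ifnar1 (0.52, adjusted p = 0.00224) and Ifngr2 (0.39, adjusted p = 0.0240) were also higher, and Jak2 was higher by 0.60 (not past the threshold without EV replicate 1 or Sox4 replicate 2). Creb1 (1.37), which binds the cyclic AMP response core, and Nfya (1.84, adjusted p = 4.65e-06), a subunit of the CCAAT-binding factor, were higher as well. Nfyb (-0.22) and Nfyc (-0.19), the other subunits of that factor, did not pass. Rfx5, which binds the same module with Nlrc5, was at 10.3 CPM in EV and 9.97 CPM in Sox4 (-0.05, adjusted p = 0.834), and changed sign with library size alone and without EV replicate 3.

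The 4 interferon genes examined had no reads. Ifng, Ifnb1, Ifnl2 and Ifnl3 had 0 counts in all 6 libraries, where a count of 0 allows up to 3 counts, or 0.150 to 0.231 CPM for counting error alone. Under TMM scaling, 9 of 18 interferon-responsive genes outside antigen presentation were lower and 3 higher, with a median of -0.98. Of all tested genes, 26.0% were lower and 29.0% higher. With library size alone, calls in all pathway lists beside the members went from 30 lower and 17 higher to 17 and 32. Cxcl9, a T cell chemoattractant, was 11.7 and 1.35 CPM (-3.10, adjusted p = 0.000173 by edgeR) and Bst2, which tethers budding viruses, was 138 and 44.7 CPM (-1.62). Isg15 (-1.46), Ifit1 (-1.34) and Gbp3 (-1.32) were lower too. Ifit2 (2.85), Usp18, which restrains type I interferon receptor signalling (2.11, adjusted p = 2.14e-06), and the GTPase Iigp1 (0.80) were higher.

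The immune cells that a liver preparation can carry also express class I genes, and bulk libraries cannot tell fewer cells of a type from less RNA per cell. Kupffer and macrophage markers, 11 in all, summed to between 13.9 and 29.2 CPM per EV library and between 31.1 and 72.1 CPM per Sox4 library. Of the 10 tested, 5 were higher and none was lower, against 29.0% and 26.0% of all tested genes. T, NK and B lymphocyte markers, 13 in all, summed to between 1.08 and 3.34 CPM per EV library and between 1.80 and 4.79 CPM per Sox4 library, with Gzmb and Ms4a1 at 0 in every library, and the only one tested did not pass. The 4 neutrophil markers summed to at most 0.765 CPM in any library.

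Markers of other liver cell types were low as well. The counts of calls below stand beside 29.0% higher and 26.0% lower among all tested genes. Endothelial markers summed to between 17.4 and 28.6 CPM in the EV libraries and between 14.1 and 33.1 CPM in the Sox4 libraries. Of these 7 genes, 2 were higher and 1 lower. Stellate markers ranged from 8.62 to 43.6 CPM in the EV libraries and from 73.8 to 134 CPM in the Sox4 libraries, with 1 of 3 tested higher, and cholangiocyte markers from 9.94 to 21.8 CPM and from 48.2 to 58.8 CPM, with 2 of 3 higher. Most of the stellate sum was Reln (7.08 to 37.5 CPM in the EV libraries, 50.7 to 126 CPM in the Sox4 libraries). Most of the cholangiocyte sum in Sox4 was Spp1 (35.2 to 41.4 CPM). Epcam, also called higher, was 0.15 CPM in EV and 2.59 CPM in Sox4 (4.05, adjusted p = 0.000638 by edgeR). Krt19 and Krt7 were at 0 in EV and at most 0.45 CPM in Sox4. The paper reports that Sox4 induced biliary genes within hepatocytes, so these markers need not come from cholangiocytes. For comparison, the 10 class I genes summed to between 3883 and 4452 CPM in the EV libraries and between 2504 and 2843 CPM in the Sox4 libraries. The part of these cells in the class I values was not tested.

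MHC class II genes, which are expressed by professional antigen-presenting cells, were low in all libraries. The 10 genes summed to between 3.62 and 14.2 CPM in the EV libraries and between 11.2 and 20.3 CPM in the Sox4 libraries, all 5 tested were above zero, and only H2-DMa passed (1.75, adjusted p = 0.0219 by edgeR, from 2 to 3 counts in EV and 11 to 13 in Sox4). That call was lost when any single library was left out. The class II transactivator Ciita, related in structure to Nlrc5, had 1 to 7 counts per library and was not tested.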

How the data were processed

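RNA-seq libraries of mouse hepatocytes, 3 EV and 3 Sox4, were grouped by the sample labels. The authors aligned reads with STAR to GRCm39 and counted them with featureCounts 2.0.1, and the deposited values used here are raw counts for each gene symbol. Which annotation, strand setting and handling of multiply mapped reads were used is not given in the sources used here. A deposited table of normalized values was not used, because its header line did not line up with its columns, and values of the same kind were recomputed from the counts. Total counts ranged from 15090629 to 16964860.

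Testing used edgeR 4.0.16 in R 4.3.3 (filterByExpr with minimum count 10 and total 15, TMM, quasi-likelihood F test with robust dispersion, no covariate), with Benjamini-Hochberg adjustment over 12691 genes and a threshold of 0.05. Unless another tool is named, adjusted p-values come from this fit. The SE of a log2 fold change was taken from the mean log2 CPM of each group, computed with 2 as the prior count. P-values measure the spread between 3 mice per group, and same-group libraries varied beyond sampling noise (chi-square per degree of freedom of 17.6 to 62.7). Exon lengths and shared sequence came from GENCODE M21 (GRCm38), and promoters from RefSeq. Floors of 3 counts cover counting error only.

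Alternatives were DESeq2 1.42.0 size factors and Wald test, library size alone, no filter, a mean count of at least 50, limma 3.58.1, a replicate block and leaving out each library. The members and the gene lists were chosen with earlier results of these data known. Named genes were the members, up to 5 genes past the threshold per list and direction, Psmb5, Psmb6, Psmb7, Irf1, Rfx5, Ifng and Ciita, and a further gene taken by this rule is not reported here. Marker lists are given as sums. The 3 further interferon genes, Psme2, Pdia3, Ifnar1, Ifngr2, Nfyb, Nfyc and the overlapping neighbours were named after their values were seen. So were the markers Reln, Spp1, Epcam, Krt19, Krt7, Ptprc, Gzmb and Ms4a1. All these genes complete small counts, sums or, for Nfyb and Nfyc, a protein complex.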

Additional observations from a re-analysis of the deposited data

How the results depend on the processing

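Of 140 values of the 10 class I genes under alternative settings, 127 kept their direction and side of the threshold, 8 passed where they had not, 3 no longer passed and 2 changed sign. Of 571 such values of the other named genes, 515 stayed, 44 no longer passed, 3 newly passed and 9 changed sign. H2-K1, Tap2, Tapbp, Psmb9 and Psmb10 were lower and past the threshold throughout. Scaling by library size alone changed most: H2-D1 became 0.061, B2m 0.24, Psma7 0.17, Psmb2 0.083, Psmb4 0.078, Psmb5 0.41, Psmb7 0.17 and Rfx5 0.42, the median of the class I genes was -0.49 with 1 called higher, and the calls in the other pathway lists went from 17 higher and 30 lower to 32 and 17. Of the genes called across the table, 79.9% were then higher, against 52.7%. Without a filter on low counts 1 class I gene, Nlrc5, was called higher and H2-D1 was called lower. When single libraries were left out, the class I genes called higher were 0 to 1 and the calls in the other pathway lists were 11 to 15 higher. Left-out libraries moved Psmb5 between -0.17 and 0.037 and Rfx5 between -0.18 and 0.011. The cause was not tested. DESeq2's Wald test called H2-D1 lower (-0.41, adjusted p = 0.0336). A fit with the replicate number as a block called 7362 genes, 6853 of them shared with the fit without it, which called 6990, and added H2-D1 (-0.42, adjusted p = 0.0317) and Psmb7 (-0.30, adjusted p = 0.0221) as lower, while H2-DMa no longer passed. The numbers did not pair the mice by correlation of deviations (0.27, -0.09 and 0.13). Depth limits Ciita, H2-DMa and the lymphocyte markers, which had few counts.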
